A study of Mus musculus with 14 samples.

Results

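Untreated Th17 cultures were set against untreated Treg cultures of mouse CD4 T cells, with 3 Th17 and 2 Treg arrays chosen by their labels out of 14 arrays in all. CD4 T cells came from the spleen and from peripheral and mesenteric lymph nodes, and total RNA of the cultures was hybridised to Affymetrix expression arrays. Both media held human IL-2 at 100 U/ml and human TGF-b1 at 5 ng/ml. The Th17 medium also held mouse IL-6 at 20 ng/ml, IL-1b at 10 ng/ml, IL-23 at 10 ng/ml, IL-21 at 10 ng/ml and TNF-a at 20 ng/ml, with antibodies against IL-4 and IFN-gamma; the Treg medium lists neither these cytokines nor the antibodies. The groups therefore differed in several additives at once, whose parts cannot be told apart. The protocols state 5 days of culture, and the study's design text names a longer time. Cultures of the same subsets made with acetate at 10 mM, 3 Th17 and 2 Treg arrays, share no array with the untreated ones. They serve below as a comparison under another treatment, not as a repeat of the untreated one. The protocols of the treated Treg cultures name acetone, but sodium acetate is what the design text gives for all subsets. The labels leave unsaid whether replicate arrays stem from different animals or different cultures. The p-values therefore reflect the spread among arrays of a group alone, and that spread may be technical. It is estimated from all 14 arrays in their 6 groups, which include Th1 cultures grown with IL-12, untreated and with acetate. The Th1 medium also held human IL-2 at 100 U/ml and an antibody against IL-4, and it lists no TGF-b1.

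Th17 cells are helper T cells that secrete IL-17 and act against bacteria and fungi at mucosal surfaces, and Treg cells restrain immune responses. TGF-beta alone with IL-2 induces the Treg factor Foxp3 in activated CD4 T cells, while TGF-beta together with IL-6 or IL-21 acts through STAT3 to induce the Th17 program. Il17f, Il22 and Il23r were not analysed here.

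Values are normalised signals, that is, the deposited signals after log2(signal + 3) and quantile normalization of all arrays, turned back to the linear scale; levels of different genes are not comparable with each other. Differences are log2 differences on that scale, Th17 minus Treg, with the standard error (SE) of a limma fit. A gene was called at a limma adjusted p under 0.05 (Benjamini-Hochberg over the 10916 genes tested), and "rose" and "fell" refer to called genes. Genes are named with any call that was lost when 1 of the 5 arrays was left out. Calls lost in the signals as deposited or with probe sets averaged are given for some genes only. Across genes, Th17 arrays correlated with each other at r of 0.975 to 0.983, the Treg arrays at 0.978, and Th17 with Treg arrays at 0.912 to 0.932. The 3-prime to 5-prime ratio of the Gapdh control, a sign of RNA quality, was 0.99 to 1.07 on Th17 arrays and 1.22 to 1.23 on Treg arrays, against at most 1.10 on the other 12 arrays of the series, and the 18S control had 2809 to 4140 on Th17 arrays and 3134 and 582 on Treg arrays. The part of these signs in the results was not tested. Limma called 1233 genes (11.3% of those tested), of which 566 rose (5.19%) and 667 fell (6.11%) in Th17 cultures. Every count of list members below is to be read beside these shares. All 566 genes that rose and all 667 that fell had Th17 and Treg arrays that did not overlap; among all tested genes 5971 did so (54.7%). The median absolute difference of called genes was 1.22 for those that rose and 1.24 for those that fell, and 13 rose and 8 fell by more than 4. The median difference of all tested genes was -0.01, but 0.41 in the signals as deposited, where 1556 genes were called, 1328 of them higher.

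**Figure D1:**
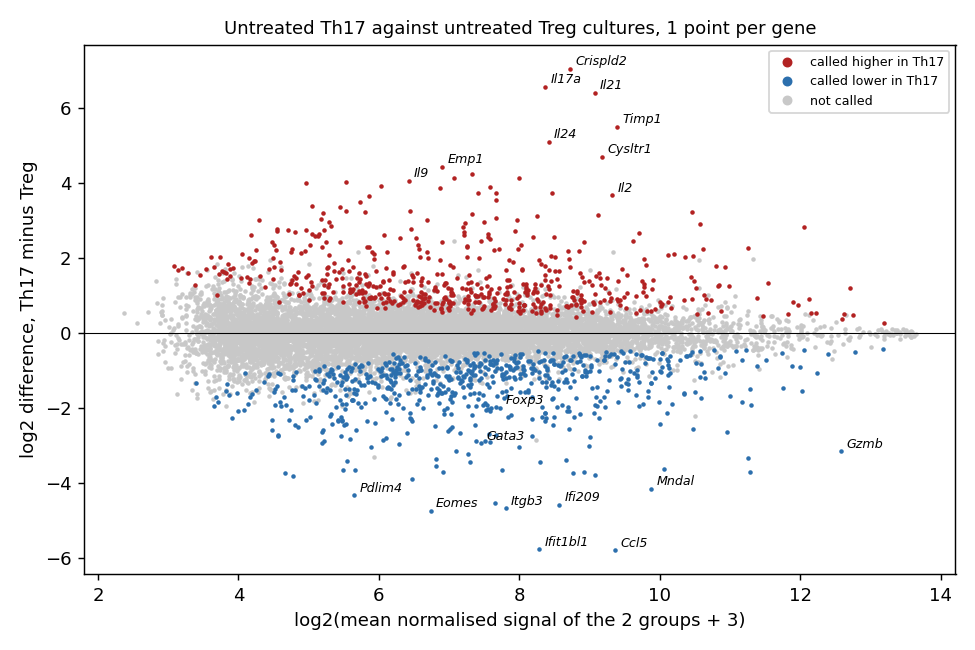
Each point is 1 of the 10916 genes tested, with the log2 of the mean normalised signal of both groups plus 3 on the x axis and the log2 difference, Th17 minus Treg, on the y axis. Red points are the 566 genes called higher and blue points the 667 called lower in Th17 cultures; Crispld2 at 7.06 and Il17a at 6.58 lie highest, and Ccl5 at -5.80 and Ifit1bl1 at -5.78 lowest.

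The cytokines of the Th17 program were high in Th17 cultures and near the filter level in Treg cultures. Il17a, the defining Th17 cytokine, had normalised signals of 713, 637 and 597 on the Th17 arrays, against 1.40 and 7.56 on the Treg arrays. Il21, which sustains Th17 cells and was itself added to their medium as protein, had 911, 1052 and 1214 on Th17 arrays, against 5.40 and 15.1 on Treg arrays. All 3 Th17 arrays were high for both genes and all Treg values lay near or below the level of 9.10 at which genes were left out of the test, so the size of these differences depends on the constant of 3 added before the log. Il17a rose by 6.58 ± 0.33 (limma adjusted p = 4.33e-07) and Il21 by 6.42 ± 0.52 (adjusted p = 1.22e-05). Il9, a cytokine also made by cells grown with TGF-beta, had 139, 254 and 86.5 on Th17 arrays and 4.97 and 6.76 on Treg arrays and rose by 4.07 ± 0.45. Il24, a cytokine of the IL-10 family, averaged 661 ± 78.0 on Th17 arrays (SD, n = 3) and 16.3 ± 3.15 on Treg arrays (SD, n = 2), a rise of 5.11. Untreated Th1 arrays of the series had 638 and 597 for Il24, so a high level was not particular to Th17 cultures.

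Of 17 Th17 lineage genes tested, 13 rose and 0 fell, with a median difference of 2.57 beside -0.01 over all genes. The members that rose include transcription factors of the lineage. Maf, which drives Il21 and Il10, had 681, 712 and 564 on Th17 arrays and 57.7 and 35.7 on Treg arrays and rose by 3.75. Ahr, the ligand-activated aryl hydrocarbon receptor, rose by 2.46, with 287 to 308 on Th17 arrays and 46.4 to 56.2 on Treg arrays. Irf4, an activation factor required for Th17 development in mice, rose by 2.08, and the nuclear receptor Rora by 2.35. The rise of Rora was lost without Treg replicate 1 or 2 (adjusted p = 0.0691 and 0.0883). Among surface and secreted members, the chemokine Ccl20 rose by 3.74 and its receptor Ccr6 by 1.67; the call of Ccr6 was lost without Treg replicate 1 or 2 (adjusted p = 0.0691 and 0.0642). The colon homing receptor Gpr15 rose by 2.57, and the membrane proteins Tmem176a and Tmem176b by 3.19 and 2.72. Stat3 (0.12), Batf (0.37), Il17re (0.73) and Pou2af1 (0.87) were not called.

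Foxp3 was lower in Th17 than in Treg cultures, but the Treg list as a whole was mixed. Foxp3 had 85.1, 55.7 and 108 on Th17 arrays, against 283 and 383 on Treg arrays. The groups did not overlap, and the Th17 arrays kept a level above the filter; the gene fell by 2.00 ± 0.33 (adjusted p = 0.0018). Ikzf2, which encodes the Treg factor Helios, fell by 2.45, with 101 to 115 on Th17 arrays and 553 to 644 on Treg arrays. Entpd1, the ectoenzyme CD39, fell by 1.86. Penk, which encodes enkephalin, fell by 3.15, lost without Treg replicate 2 (adjusted p = 0.0883). Of 18 Treg lineage genes tested, 4 fell and 2 rose, with a median of -0.06. The 2 that rose were Il2ra, the high-affinity IL-2 receptor chain CD25, with 1231, 1272 and 1237 on Th17 arrays and 521 and 483 on Treg arrays, and Capg, an actin-capping protein. Il2ra rose by 1.31, lost without Treg replicate 1 or 2 (adjusted p = 0.0569 and 0.0815), and Capg by 0.88, lost without Treg replicate 1 (adjusted p = 0.0717). In the signals as deposited 7 members of this list were higher and 4 lower, with a median of 0.40. Ctla4 (-0.08), Tnfrsf18 (-0.25), Itgae (-0.03) and Nt5e (0.92) were not called.

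**Figure D2:**
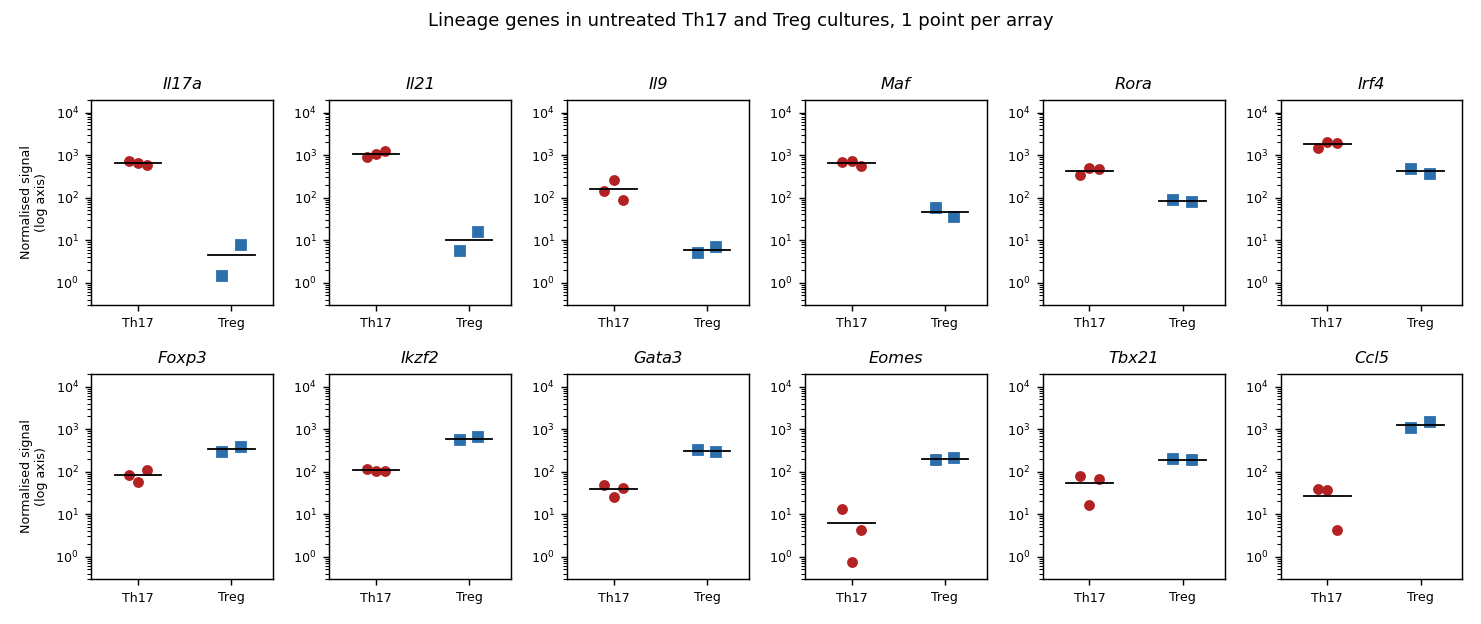
Normalised signal on a log axis for 12 lineage genes, with 1 red circle per Th17 array (left, 3 arrays), 1 blue square per Treg array (right, 2 arrays) and a black line at each group's mean. Il17a, Il21, Il9, Maf, Rora and Irf4 lie higher on all Th17 arrays, and Foxp3, Ikzf2, Gata3, Eomes, Tbx21 and Ccl5 lie lower on all of them, with Th17 replicate 2 the lowest for Foxp3, Gata3, Eomes and Tbx21.

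Eomes, Gata3, Tbx21 and Stat4, factors of cytotoxic, Th2 and Th1 cells, were lower in Th17 cultures, whereas Nfil3 of the Th2 list and Tox2 of the follicular helper list rose. Eomes, a T-box factor of cytotoxic and memory T cells, had 13.3, 0.753 and 4.20 on Th17 arrays, against 190 and 212 on Treg arrays. Its Th17 values scatter around the filter level and all lie far below the Treg values, and it fell by 4.74 ± 0.48 (adjusted p = 7.8e-05). Gata3, the Th2 factor that is also expressed in Treg cells, averaged 38.1 on Th17 arrays and 306 on Treg arrays and fell by 2.95. Tbx21, which encodes the Th1 factor T-bet, had 79.0, 16.7 and 67.0 on Th17 arrays and 194 and 187 on Treg arrays and fell by 2.00. The call of Tbx21 was lost without Treg replicate 1 or 2 (adjusted p = 0.115 and 0.113). Stat4, which carries the IL-12 signal, fell by 1.92, with 201 to 241 on Th17 arrays and 852 on both Treg arrays.

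Of 16 Th1 lineage genes tested, 8 fell and 1 rose, with a median of -1.49. The T cell chemokine Ccl5 fell most, by 5.80 ± 0.71 (adjusted p = 0.000215). It had 38.7, 36.1 and 4.18 on Th17 arrays, against 1075 and 1485 on Treg arrays. Cxcr3, the chemokine receptor of Th1 cells, fell by 3.05, the death ligand Fasl by 3.72 and the inhibitory receptor Havcr2 (TIM-3) by 2.76. Il12rb1, a chain of the IL-12 and IL-23 receptors, was the member that rose, by 0.97, lost without Th17 replicates 2 or 3 or either Treg replicate (adjusted p up to 0.142). Ifng itself was not called (-1.15 ± 0.97): it had 1253, 223 and 523 on Th17 arrays and 1099 and 1256 on Treg arrays, and the groups overlapped. Of 9 Th2 genes tested, Ccr4 rose by 2.31 and Nfil3 by 1.78, Gata3 fell, and Il4 (0.61), Il13 (-0.17) and Il10 (1.68) were not called; the rise of Nfil3 was lost without Treg replicate 2 (adjusted p = 0.0691). Of 12 follicular helper genes, 5 fell, among them Pdcd1 (PD-1) by 1.98 and the signalling adaptor Sh2d1a by 1.50, and Tox2 rose by 3.87, with 197 to 246 on Th17 arrays and 6.77 and 19.4 on Treg arrays. Without 1 array the follicular count of falls was 2 with Th17 replicate 2 or either Treg replicate left out, and in the signals as deposited 3 follicular genes were higher and 3 lower, with a median of 0.15 in place of -0.36.

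Among 23 secreted cytokine and growth factor genes, 11 rose and 0 fell, with a median of 1.68. Lta, which encodes lymphotoxin alpha, had 2595, 2938 and 2467 on Th17 arrays, against 431 and 289 on Treg arrays, and rose by 2.90. Lif, a cytokine that signals through gp130, rose by 2.20, with 650 to 911 on Th17 arrays and 159 to 164 on Treg arrays. Il2 had 1414, 755 and 1398 on Th17 arrays, against 108 and 69.0 on Treg arrays. The Il2 groups stood well apart, and it rose by 3.68 ± 0.86 (adjusted p = 0.0141), a call lost without Treg replicate 1 or 2 (adjusted p = 0.0699 and 0.131). Csf2, Tnf, Osm and Vegfa also rose, by 2.65, 1.76, 1.07 and 1.78, and each lost its call without Treg replicate 2 (adjusted p of 0.0661, 0.127, 0.0726 and 0.200). Csf2, Tnf and Vegfa also lost it without Treg replicate 1, Tnf and Vegfa without Th17 replicate 1 and Vegfa without Th17 replicate 2. The count of cytokine genes that rose was 6 without Treg replicate 2. Inhba, a subunit of activin from the TGF-beta family, was outside this list and rose by 4.25.

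Of 17 tested receptor genes for cytokines that were added to the Th17 medium or neutralised in it, a list that also holds the IL-1 receptor antagonist Il1rn, 6 rose and 2 fell, with a median of 0.57. Ifngr1, the ligand-binding chain of the receptor for interferon-gamma, which the Th17 medium neutralised, had 392, 328 and 384 on Th17 arrays, against 1371 and 1358 on Treg arrays, and fell by 1.89. Il6st, which encodes the shared IL-6 family chain gp130, fell by 0.98, lost without Treg replicate 2. Il6st was also not called with its probe sets averaged or in the signals as deposited (limma adjusted p = 0.302 and 0.230). The decoy receptor Il1r2 had 353 to 365 on Th17 arrays and 32.6 and 48.1 on Treg arrays and rose by 3.09. The call of Il1r2 was lost without Treg replicate 1 (adjusted p = 0.0691), and without Treg replicate 1 or 2 the count of receptors that rose was 1 and 2. The TGF-beta receptors Tgfbr1 (-0.10) and Tgfbr2 (-0.20) and the TNF receptors Tnfrsf1a (-0.22) and Tnfrsf1b (-0.28) were not called.

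Targets of the pathways that the cytokines feed varied from list to list. Of 17 STAT3 target and feedback genes 4 rose and 2 fell (median 0.57), among them the protease inhibitor Timp1, which had 1129, 1524 and 1273 on Th17 arrays, against 23.3 and 28.3 on Treg arrays, a rise of 5.50 ± 0.31 (adjusted p = 8.14e-07). Socs3 (0.76) and Bcl3 (0.01), feedback and target genes of STAT3, were not called. Of 17 STAT5 genes 7 rose and 2 fell (median 0.50); the granzyme Gzmb and perforin, Prf1, fell, and Cish, an IL-2 feedback inhibitor, rose by 1.01, lost without Treg replicate 2 (adjusted p = 0.09). Of 23 TGF-beta pathway genes 4 rose and 0 fell (median 0.18): Bambi, a decoy receptor of the family, rose by 2.79, and Id1, Id2 and Tgfbr3 by 1.63, 1.61 and 1.33, the last 3 lost without Treg replicate 1 (adjusted p of 0.0552, 0.0671 and 0.0850). Smad7 (-0.03), Skil (0.70) and Pmepa1 (0.97) were not called. Of 16 NF-kB genes Ier3, an early response gene, rose by 1.71, and Nfkbia (0.48), Tnfaip3 (-0.34) and 13 others were not called. That count is near the 5.19% of all tested genes that rose. Of 27 immediate early and activation genes 4 rose and 1 fell (median 0.10), and Myc (0.28), Egr1 (-0.05) and Cd44 (0.09) were not called. Signals as deposited moved these counts upward, to 9 STAT3, 11 STAT5, 8 TGF-beta, 5 NF-kB and 9 immediate early genes higher. Without 1 array the counts that rose were as low as 2 for STAT3 (without Th17 replicate 1 or either Treg replicate), 2 for STAT5 (without Treg replicate 2), 1 for TGF-beta (without Treg replicate 1) and 2 for immediate early genes (without either Treg replicate).

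Interferon response genes were lower in Th17 cultures across both lists. Ifit1bl1, of the interferon-induced Ifit family, had 15.3, 8.35 and 3.51 on Th17 arrays, against 562 and 652 on Treg arrays, and fell by 5.78 ± 0.53 (adjusted p = 3.8e-05). Irf7, the factor that amplifies type I interferon, had 47.5, 25.9 and 25.6 on Th17 arrays, against 253 and 175 on Treg arrays, and fell by 2.62. For Ifit1bl1 and Irf7 every untreated Treg array lay above every untreated Th17 array. Ifit2 fell by 2.85 and Ifit3 fell by 3.66. Usp18, a brake on interferon receptor signalling, fell by 2.81 and Ifi27l2a fell by 2.65. Of 27 type I interferon response genes tested 21 fell and 0 rose, with a median of -1.78; Oas3 (-1.87), Oas2 (-1.27), Dhx58 (-1.25), Parp14 (-0.63), Oasl1 (-0.25) and Ifi35 (0.01) were not called.

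Among 21 genes of the interferon-gamma response 17 fell and 0 rose, with a median of -1.32. Iigp1, a GTPase that acts on vacuoles of intracellular parasites, had 310, 69.4 and 163 on Th17 arrays, against 1807 and 2082 on Treg arrays, and fell by 3.64 ± 0.63 (adjusted p = 0.00232). The guanylate-binding protein Gbp7 fell by 3.40, the GTPases Irgm1 and Irgm2 by 2.13 and 2.23, and the transcription factor Irf1 by 2.13. Genes of antigen processing were lower by less. The immunoproteasome subunits Psmb9 and Psmb8 fell by 1.62 and 0.71, and the peptide transporter chains Tap1 and Tap2 by 1.32 and 0.89. In the signals as deposited limma did not call Psmb8, Tap1 or Tap2 (adjusted p = 0.661, 0.0934 and 0.410). Gbp2 (-0.86), Irf8 (-0.45), Cd274 (-0.18) and Socs1 (0.65) were not called. Left-out arrays moved these counts: 10 type I and 10 interferon-gamma genes fell without Treg replicate 1, and type I falls were 14 without Treg replicate 2 or Th17 replicate 2, against 21. In the signals as deposited 14 type I genes and 9 interferon-gamma genes were lower and 0 and 1 higher. Genes of the Ifit and Gbp families resemble each other in sequence, and their probe sets may share signal.

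The interferon-stimulated response element, a motif of promoters responding to type I interferon, was searched as GAAA and GAAAC with any 2 bases between them. The search covered both strands of the 250 bases before each transcript start, from RefSeq promoters of build GRCm38.p6. The element counted for a gene when it lay before any of that gene's starts. It was found for 26 of 533 genes that fell (4.88%), for 1 of 459 that rose (0.218%) and for 77 of 8920 tested genes with a promoter (0.863%), and for 7 of 20 type I (35.0%) and 5 of 16 interferon-gamma genes (31.2%). Stretches of 6 genes that fell are shown because they carry the element; capitals mark the match, read on the gene's strand, so that a match on the other strand begins with GTTTC, and the Irgm1 capitals join overlapping matches.
Ifit1bl1, chr19:34602033-34602103, minus strand: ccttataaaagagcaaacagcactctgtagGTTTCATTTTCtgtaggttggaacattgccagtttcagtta
Ifit3, chr19:34583342-34583412, plus strand: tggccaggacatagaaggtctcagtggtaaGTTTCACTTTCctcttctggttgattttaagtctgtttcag
Gbp7, chr3:142530252-142530322, plus strand: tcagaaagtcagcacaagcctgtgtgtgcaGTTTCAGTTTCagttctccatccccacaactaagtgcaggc
Oas1a, chr5:120907526-120907575, minus strand: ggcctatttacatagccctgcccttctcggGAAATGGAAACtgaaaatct
Irgm1, chr11:48871421-48871480, minus strand: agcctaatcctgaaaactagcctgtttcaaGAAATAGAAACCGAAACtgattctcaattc
Trim30a, chr7:104465194-104465260, minus strand: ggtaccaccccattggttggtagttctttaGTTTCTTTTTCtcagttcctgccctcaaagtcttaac
Of these genes, Oas1a fell by 2.24, a call lost without Th17 replicate 1 or Treg replicate 1 (adjusted p = 0.0554 and 0.189), and Trim30a fell by 1.96. The Ifit1bl1 stretch lies before a transcript start inside the span annotated for that gene. A match describes these letters and is no measurement of binding.

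Cytotoxic genes were high in Treg cultures. Gzmb, the granzyme that triggers apoptosis in target cells, had 2270, 538 and 1444 on Th17 arrays, against 10905 and 10759 on Treg arrays, and fell by 3.16 ± 0.46 (adjusted p = 0.000797). Gzma had 373, 259 and 438 on Th17 arrays, against 4644 and 4583 on Treg arrays, and fell by 3.71. For both granzymes the Treg arrays lay close together and the Th17 arrays spread more, with Th17 replicate 2 the lowest. Gzmc fell by 3.78, Gzmd by 3.74, Gzme by 3.81 and the pore-forming Prf1 by 3.01; Gzmd and Gzme were measured by probe sets of the x_at type, some of whose probes match other transcripts. Of 19 cytotoxic genes tested 11 fell and 0 rose, with a median of -2.13, and 8 fell without either Treg replicate. Serine protease inhibitors outside this list fell as well, Serpinb6b by 3.74 and the granzyme B inhibitor Serpinb9 by 3.45. The killer lectin receptors Klrd1 (-0.47), Klrc1 (1.30) and Klrk1 (-1.24) were not called.

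Markers of NK and CD8 T cells were measured beside these genes. The summed signal of 6 NK markers was 1277, 834 and 1073 on Th17 arrays and 1737 and 1251 on Treg arrays, nearly all of it from Klrd1, while the defining marker Ncr1 lay at 3.92 to 6.59 on Th17 arrays and 2.38 to 5.54 on Treg arrays. Of these markers Tyrobp fell by 2.33, with means of 5.60 on Th17 arrays and 33.0 on Treg arrays, and lost its call without Th17 replicate 1 or 3 or either Treg replicate (adjusted p up to 0.131). Cd8a had 131, 22.5 and 66.4 on Th17 arrays and 179 and 128 on Treg arrays (-1.32, not called), and Cd8b1 had 48.0, 29.9 and 45.4 on Th17 arrays and 38.0 and 69.0 on Treg arrays. Cd8a followed the same order as Gzmb among the Th17 arrays, and its part in the cytotoxic differences was not tested. Fewer cells of a kind and less RNA per cell cannot be told apart in these cultures.

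Inhibitory and recirculation genes were lower in Th17 cultures. Of 12 inhibitory receptors and adenosine enzymes 5 fell and 0 rose, with a median of -0.69 (in the signals as deposited 4 were lower and 2 higher, with a median of -0.19); besides Havcr2, Pdcd1 and Entpd1 these were Cd96, an inhibitory receptor of T and NK cells, by 2.13, and Lag3 by 1.31. Lag3 lost its call without Th17 replicate 2 or either Treg replicate (adjusted p up to 0.140). Of 15 naive and recirculation genes 7 fell and 0 rose, with a median of -0.79. The costimulatory receptor Cd27 had 229, 112 and 180 on Th17 arrays, against 758 and 744 on Treg arrays, and fell by 2.15. The egress receptor S1pr1 fell by 1.21, the factors Klf3 and Foxp1 by 1.67 and 1.13, and Dapl1 by 3.90. S1pr1 and Foxp1 were not called in the signals as deposited (limma adjusted p = 0.121 and 0.154). Ccr7 (-0.34), Il7r (-0.37) and Lef1 (-0.37) were not called. Signals as deposited left 3 of the 15 lower and 1 higher.

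Of 22 homing receptors and integrins 5 rose and 6 fell, with a median of -0.27, and without Treg replicate 2 the counts were 2 and 2. In the signals as deposited 7 were higher and 3 lower, and the median turned to 0.27. Itgb3, the integrin beta chain shared by the vitronectin receptor, had 13.3, 9.78 and 19.3 on Th17 arrays, against 390 and 464 on Treg arrays. No Th17 array came near the Treg level, and Itgb3 fell by 4.68 ± 0.31 (adjusted p = 3.5e-06). Of the chemoattractant receptors in this list, Ccr4, Ccr6, Gpr15 and Cxcr4 rose and Cxcr3, Ccr2 and Cxcr5 fell, Ccr2 by 1.88 and Cxcr5 by 1.18. The call of Ccr2 was lost without Th17 replicate 1 or 2 or either Treg replicate (adjusted p up to 0.161), and that of Cxcr5 without any 1 of the 5 arrays (adjusted p of 0.0785 to 0.194). Cxcr4 rose by 2.51, with 273 to 409 on Th17 arrays and 51.0 to 56.4 on Treg arrays, and its call was lost without any 1 of the 5 arrays (adjusted p of 0.0541 to 0.148). Both lipid mediator receptors among the genes with the largest rises act in leukocyte recruitment: Cysltr1, for cysteinyl leukotrienes, rose by 4.71 and Ltb4r1, for leukotriene B4, by 4.15. Cysltr1 had 978, 1297 and 1061 on Th17 arrays, against 52.1 and 29.6 on Treg arrays.

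Other genes among the largest differences had diverse roles. Crispld2, a secreted protein that binds lipopolysaccharide, had 525, 1226 and 759 on Th17 arrays, against 2.20 and 3.72 on Treg arrays, and rose by 7.06 ± 0.91 (adjusted p = 0.000293). It lay below the filter level on both Treg arrays, its probe set is of the x_at type, and all 3 of its probe sets were called higher. Lbp, the lipopolysaccharide-binding protein, rose by 4.05, the membrane protein Emp1 by 4.44, and Gcnt2, a glycosyltransferase that branches poly-N-acetyllactosamine chains, by 4.14. Emp1 and Inhba stood on a wide Treg spread, with 17.4 and 2.17 for Emp1 and 23.9 and 6.25 for Inhba. Ifi209 and Mndal, interferon-inducible genes that encode nucleic acid sensing PYHIN proteins, fell by 4.60 and 4.16. Ifi209 had 718 and 726 on Treg arrays but 29.7 and 57.0 on untreated Th1 arrays, and Mndal had 2013 and 1513 against 245 and 297. Ms4a4c, a membrane gene of the Ms4a family, fell by 4.54, and Pdlim4, which encodes a LIM domain protein of the cytoskeleton, fell by 4.34. Of 24 matrix and protease genes 5 rose and 3 fell. Vim, the intermediate filament vimentin, rose by 1.20 and Serpinf1 by 2.96, and the lysosomal protease Ctsd fell by 1.20. Ctsd was not called in the signals as deposited (limma adjusted p = 0.142).

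Glycolysis genes were higher in Th17 cultures, by small to moderate amounts. Hk2, the hexokinase that traps glucose, had 681, 1017 and 751 on Th17 arrays, against 163 and 134 on Treg arrays, and rose by 2.42 ± 0.22 (adjusted p = 3.42e-05). The glucose transporter Slc2a1 (GLUT1) had 1211, 1891 and 891 on Th17 arrays, against 294 and 178 on Treg arrays, and rose by 2.46. Neither gene overlapped between the groups. The lactate exporter Slc16a3 rose by 1.96, the phosphofructokinase Pfkl by 1.60, Tpi1 and Pgam1 by 1.34 and 1.27, and pyruvate kinase Pkm by 0.74. Of 18 glycolysis genes tested 9 rose and 0 fell, with a median of 0.68, while Pgk1 (-0.00), Aldoa (0.14) and Pfkm (-0.60) were not called. Ldha and Gapdh, at 7695 to 8354 and 9820 to 10628 on Th17 arrays, rose by 0.49 and 0.26, and both calls were lost without either Treg replicate or without Th17 replicate 2 or 3, that of Gapdh also without Th17 replicate 1 (adjusted p up to 0.139 for Ldha and 0.277 for Gapdh).

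Genes of the hypoxia response rose together with them. Egln3, a prolyl hydroxylase that HIF induces and that acts on HIF, had 1979, 3165 and 2519 on Th17 arrays, against 291 and 235 on Treg arrays, and rose by 3.25 ± 0.42 (adjusted p = 3e-04). Bnip3, which promotes mitophagy, had 2036, 2910 and 2774 on Th17 arrays, against 687 and 411 on Treg arrays, and rose by 2.25. Every Th17 value lay above every Treg value for both. The mitochondrial adenylate kinase Ak4 rose by 2.61, the collagen hydroxylase Plod2 by 1.91 and Egln1 by 1.47. Of 22 hypoxia and HIF-1 targets tested 12 rose and 0 fell, with a median of 1.28; without Treg replicate 2 the count was 6. P4ha2 and Ankrd37 rose by 2.85 and 2.55, both lost without Treg replicate 2 (adjusted p = 0.0803 and 0.103). Hif1a (0.67), Ddit4 (0.98) and Pdk1 (-0.13) were not called.

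The hypoxia response core was searched as ACGTG on both strands of the same 250 bases. It was found for 160 of 459 genes that rose (34.9%), 105 of 533 that fell (19.7%) and 2312 of 8920 tested genes with a promoter (25.9%), and for 14 of 20 hypoxia genes (70.0%) and 9 of 17 glycolysis genes (52.9%). Stretches of 4 genes that rose are shown because they hold this core, in capitals; CACGT is the match on the other strand, and credit and build are as above. Other motifs were searched in the same windows. The STAT3 site, TTCCNGGAA, which lies within the gamma-activated spelling, was found for 2 genes that rose (0.436%), 12 that fell (2.25%) and 110 of all tested (1.23%), and the nuclear receptor core AGGTCA for 60 (13.1%), 94 (17.6%) and 1149 (12.9%). The gamma-activated site, TTCNNNGAA, was found for 7.41% of genes that rose, 7.88% of those that fell and 7.21% of all, the ATF4 composite TGATGCAA for 1.53%, 0.563% and 0.661%, and the NF-kB site, GGG and TTTCC with any 2 bases between them, for 2.40%, 1.31% and 1.78%. The 11 spellings searched include 4 that are wider or narrower forms of these.
Egln3, chr12:54204069-54204124, minus strand: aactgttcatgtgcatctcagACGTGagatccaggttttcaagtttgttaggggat
P4ha2, chr11:54100816-54100880, plus strand: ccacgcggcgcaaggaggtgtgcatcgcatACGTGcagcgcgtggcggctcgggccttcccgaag
Ankrd37, chr8:46000057-46000100, minus strand: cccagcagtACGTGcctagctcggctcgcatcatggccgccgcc
Hk2, chr6:82774646-82774704, minus strand: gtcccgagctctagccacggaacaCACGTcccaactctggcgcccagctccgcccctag

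Amino acid stress genes showed the same direction with smaller margins. Atf5, a stress-induced transcription factor, had 310, 449 and 484 on Th17 arrays, against 94.9 and 73.5 on Treg arrays, and rose by 2.24 ± 0.33 (adjusted p = 0.000797). The secreted glycoprotein Stc2 rose by 2.02, the proline synthesis enzyme Aldh18a1 by 1.06, and the kinase-like inhibitor Trib3 by 1.70, lost without Treg replicate 2 (adjusted p = 0.106). Of 22 genes of the ATF4, endoplasmic reticulum stress and amino acid response 10 rose and 0 fell, with a median of 0.90, and 3 rose without Treg replicate 2 and 6 without Treg replicate 1. The chaperone Hspa5 (0.16) and Xbp1 (0.48), targets of the unfolded protein response, were not called. Of 13 amino acid and nutrient transporters 3 rose (median 0.65): Slc3a2 by 0.91, Slc7a5 by 1.54 and Slc1a4 by 1.60. Each of these 3 calls was lost without Treg replicate 2 (adjusted p of 0.0929, 0.176 and 0.283), and 0 to 2 were called whichever array was left out. In the signals as deposited 15 and 9 of these lists were higher.

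Of 25 sterol and fatty acid synthesis genes 7 rose and 1 fell, with a median of 0.43, beside 5.19% and 6.11% of all tested genes. Without 1 array 1 to 4 rose, and in the signals as deposited 13 were higher and 0 lower, with a median of 0.92. Acly, which makes cytosolic acetyl-CoA from citrate, had 611, 738 and 839 on Th17 arrays, against 353 and 343 on Treg arrays, and rose by 1.05. With its probe sets averaged Acly was not called (limma adjusted p = 0.496). The sterol synthesis enzymes Lss and Hsd17b7 rose by 1.33 and 0.94, both lost without Treg replicate 2 (adjusted p = 0.127 and 0.0544), Hsd17b7 also without Treg replicate 1. Srebf1 (0.43), Srebf2 (0.27) and Acaca (0.63) were not called. Of 19 genes of the citric acid cycle and fatty acid oxidation 0 rose and 3 fell: Idh2 by 1.02, Mdh1 by 0.69 and Cpt1a, the gate of fatty acid oxidation, by 0.91. Each of these was lost without Treg replicate 2 (adjusted p of 0.0853, 0.107 and 0.138), Mdh1 and Cpt1a also without Treg replicate 1 or Th17 replicate 2 and Cpt1a without Th17 replicate 1. The median of the list was -0.17 but 0.32 in the signals as deposited.

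Of 32 cell cycle genes 6 fell and 0 rose, with a median of -0.55, and 0 to 2 fell whichever array was left out. In the signals as deposited 2 were lower and 1 higher, with a median of -0.12. Ccnb2, a mitotic cyclin, had 63.1, 61.7 and 55.3 on Th17 arrays, against 283 and 204 on Treg arrays, and fell by 1.95. Its call was lost without any 1 of the 5 arrays (limma adjusted p of 0.0666 to 0.0830 without a Th17 array). Its groups did not overlap, which held for all 667 genes that fell. Mki67 (-1.23), Plk1 (-1.41) and Top2a (-0.78) were not called, nor were the replication genes Mcm2 (0.36) and Pcna (0.05). Of 24 genes of Myc and ribosome biogenesis 2 rose (median 0.65), whereas 14 were higher in the signals as deposited. Among all tested genes 5.19% rose and 6.11% fell. The counts called in this list and among the apoptosis regulators below are near those shares. Of 18 metallothionein and antioxidant genes 5 rose, of which glutathione reductase, Gsr (1.17), kept its call whichever array was left out; the count was 2 without Th17 replicate 2 or either Treg replicate. Of 18 apoptosis regulators Bcl2 and Casp6 rose by 1.42 and 1.17 and Casp1 fell by 1.88, and each lost its call without Th17 replicate 2 or either Treg replicate, Bcl2 also without Th17 replicate 1 or 3 (adjusted p up to 0.193, 0.119 and 0.122).

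**Figure D3:**
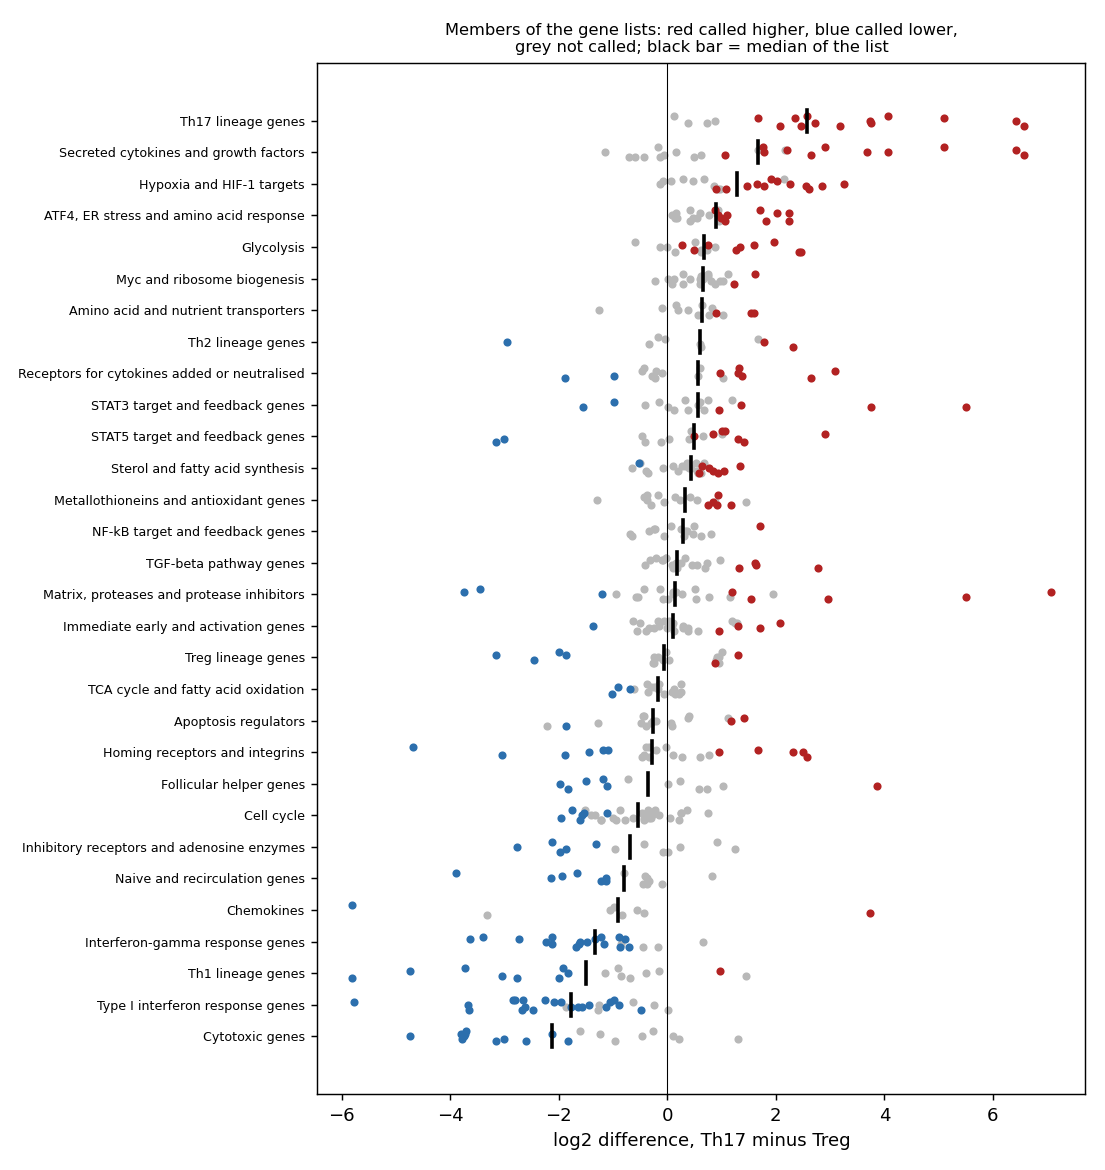
Each point is a tested gene of the list named at the left, placed at its log2 difference, Th17 minus Treg, and coloured red where called higher, blue where called lower and grey where not called; the black bar is the median of the list. Medians run between -2.13 for cytotoxic genes and 2.57 for Th17 lineage genes.

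**Figure D4:**
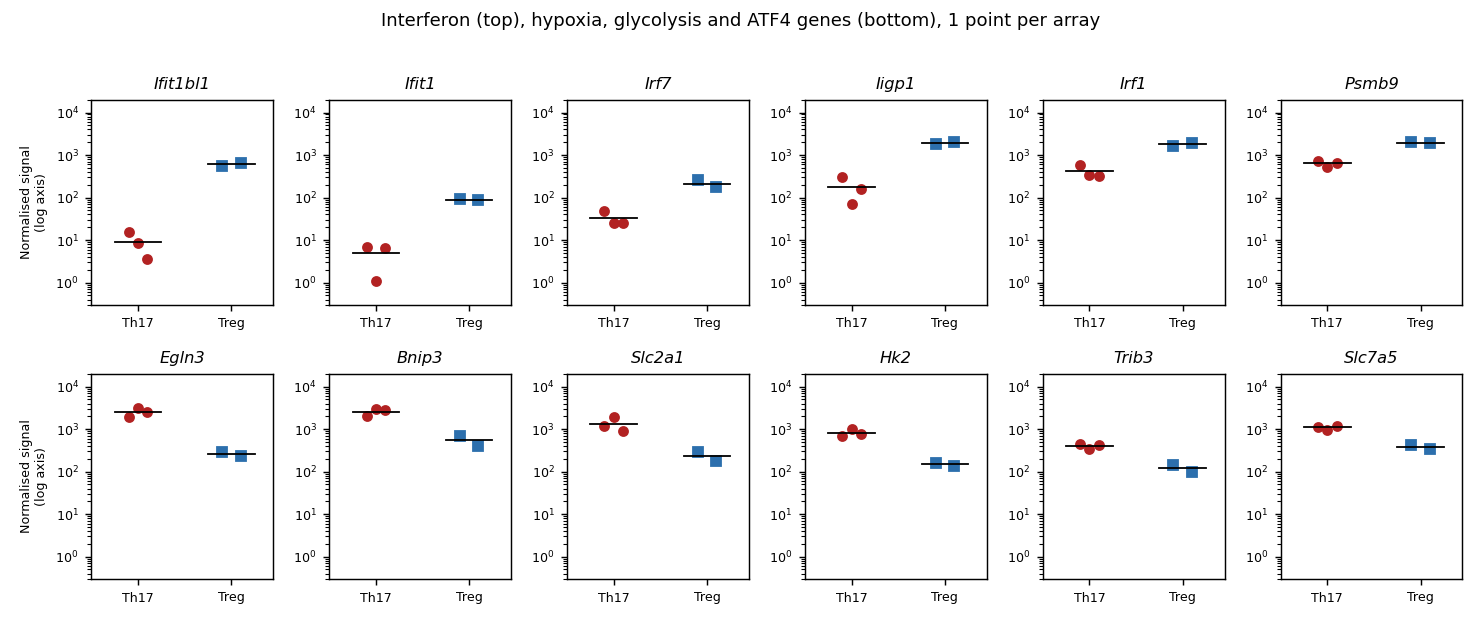
Normalised signal on a log axis for 6 interferon genes (top) and 6 hypoxia, glycolysis and amino acid stress genes (bottom), with red circles for the 3 Th17 arrays at the left of each panel, blue squares for the 2 Treg arrays at the right, and black lines at the means. Ifit1bl1 lies at 3.51 to 15.3 on Th17 arrays and 562 to 652 on Treg arrays, and Egln3 at 1979 to 3165 and 235 to 291, without overlap.

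T cell identity was shared by both groups. The summed signal of 10 pan T cell markers was 20207, 18390 and 19324 on Th17 arrays and 21283 and 23984 on Treg arrays. Cd3d and Thy1 were bright on every array, and Cd4 had 260, 367 and 259 on Th17 arrays and 485 and 569 on Treg arrays (-0.85, not called). Cd247, the zeta chain of the T cell receptor complex, fell by 1.18. Cd3e fell by 0.78, lost without Th17 replicate 3 (limma adjusted p = 0.0657) or either Treg replicate. Neither gene was called in the signals as deposited (adjusted p = 0.172 and 0.634). Of 63 markers of 9 other cell types on the array, 53 lay under 50 on every one of the 5 arrays and 5 exceeded 100 on any. The B cell sum was 1384, 899 and 1459 on Th17 arrays and 2486 and 2842 on Treg arrays, nearly all from Ighm, with Cd79a, Ms4a1 and Pax5 at most 15.1 on any array. Ebf1, a B cell factor, rose by 3.02, with 28.9 to 35.3 on Th17 arrays and 0.561 and 2.15 on Treg arrays. The part of other cells in the results was not tested.

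Th17 and Treg cultures were also compared with acetate, which is another treatment and no repeat of the untreated comparison. There limma called 107 genes (0.98% of those tested), 48 higher (0.44%) and 59 lower (0.54%) in Th17 cultures. Of the 566 genes that rose between untreated cultures 463 had the same sign with acetate (81.8%) and 33 were called in the same direction, and of the 667 that fell 598 had the same sign (89.7%) and 44 were called, with 0 called in the opposite direction. Over all tested genes 66.5% had the same sign. The median difference with acetate was 0.31 for the genes that rose and -0.45 for those that fell. Because the genes were chosen on the untreated arrays, a smaller difference in other arrays is in part fixed by that choice. The Gapdh ratio was 0.99 to 1.08 on acetate Th17 arrays and 1.02 to 1.03 on acetate Treg arrays, so the higher ratio of the untreated Treg arrays was absent there, and the 18S control had 3350 to 4149 on acetate Th17 arrays and 506 to 816 on acetate Treg arrays.

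Some genes of the lineages were called again with acetate and others were not: of the 17 Th17 genes 9 were called higher with acetate, against 13 untreated. Il17a had 4184, 5370 and 3126 on acetate Th17 arrays, against 10.5 and 15.8 on acetate Treg arrays, a log2 difference of 8.02. Il21, Il9, Ahr and Tmem176b were again called higher, by 3.05, 5.22, 2.03 and 2.61, and Foxp3, Gata3 and Eomes again lower, with differences of -1.93, -2.91 and -2.38. On acetate Treg arrays Foxp3 had only 51.9 and 66.0, against 283 and 383 on untreated Treg arrays. Acetate Th17 arrays had 14.1, 7.77 and 19.9 for Foxp3, so its level was lower with acetate in both subsets. Maf (1.16, adjusted p = 0.323), Ikzf2 (-1.16, adjusted p = 0.0781) and Tbx21 (-0.56, adjusted p = 0.721) were not called with acetate by limma, and the difference of Il21 was 6.42 untreated and that of Eomes -4.74. By lists, the median with acetate was 2.14 for Th17 genes, -1.26 for cytotoxic, -0.52 for type I interferon, -0.03 for glycolysis, -0.05 for hypoxia and 0.06 for the ATF4 response. Egln3, for example, had 1010, 2930 and 2082 on acetate Th17 arrays and 1636 and 1332 on acetate Treg arrays, and the groups overlapped there.

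Whether the Th17 minus Treg difference itself changed with acetate was tested in the same fit, and 51 genes did so (0.467% of those tested), of which 30 were among the 566 that rose and 19 among the 667 that fell; without Treg control replicate 2 the count was 10. Enah, a regulator of actin filaments, shared the lowest adjusted p with Ms4a4b and Ift80. It had 553, 601 and 475 on untreated Th17 arrays against 74.6 and 47.1 on untreated Treg arrays, and with acetate 152, 132 and 247 on Th17 arrays against 212 and 216 on Treg arrays. The difference was 3.12 untreated and -0.32 with acetate, a change of -3.44 ± 0.37 (adjusted p = 0.00293). Ms4a4b, Ift80, Cysltr1 and Adgre5 had no called difference with acetate (-0.32, 0.31, 0.91 and -0.47). Hk2 was among the changed genes, with 2.42 untreated and 0.45 with acetate (adjusted p = 0.0141). Changes of Il17a (1.44) and Foxp3 (0.07) were not called, nor were those of Il21 (-3.37, adjusted p = 0.0758) and Egln3 (-2.94, adjusted p = 0.0524).

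**Figure D5:**
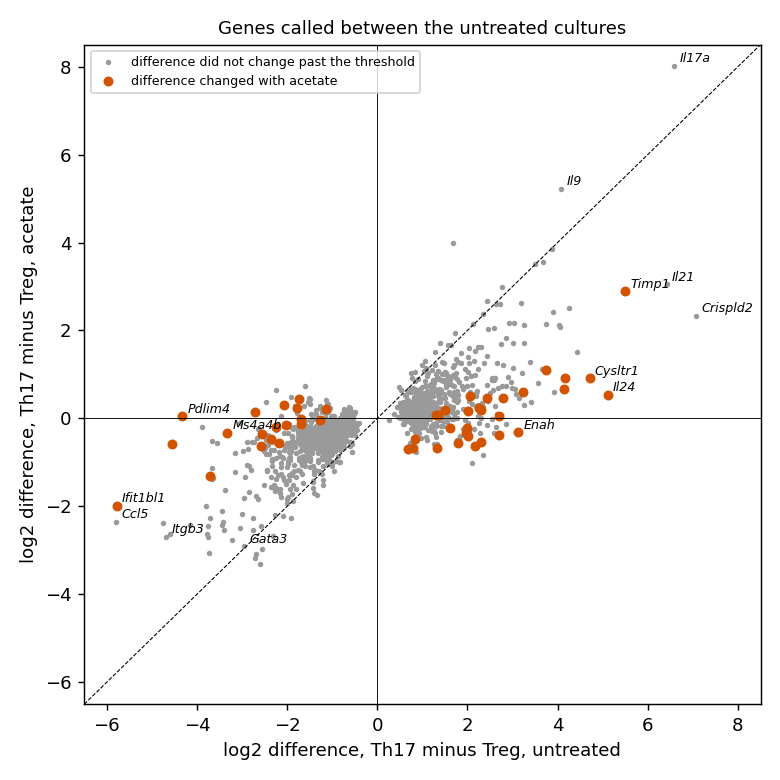
Each point is 1 of the 1233 genes called between untreated cultures, with the untreated log2 difference, Th17 minus Treg, on the x axis and that of the acetate cultures on the y axis; the dashed line marks equal values, and orange points are genes whose difference changed with acetate. Il17a lies at 6.58 and 8.02, whereas Il24 lies at 5.11 and 0.54 and Pdlim4 at -4.34 and 0.04.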

How the data were processed

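Total RNA of 14 cultures was measured on Affymetrix arrays. The authors deposited linear signal intensities, 1 for each probe set of each array, computed by MAS5 according to the submitters' processing notes. For MAS5 no version and no scaling target is given in the sources used here. Arrays entered through the group in their labels, and no column was left out. Of 45101 probe sets 34958 carried 1 gene symbol in the platform annotation, 932 several and 9211 none; only the first were used. Their log2(signal + 3) values were quantile normalized over the 14 arrays. Each of 18194 genes was represented by the probe set with the highest mean, and the 10916 genes at or above the 40th percentile (mean log2 3.60, a signal of 9.10) were tested. A log2 difference on this scale understates the change of dim genes.

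All arrays entered 1 model of 6 group means in limma 3.58.1 under R 4.3.3, without covariates and with 8 residual degrees of freedom and eBayes with a trend, so that all groups share 1 estimate of the spread. Contrasts were untreated Th17 minus Treg, the same with acetate, and the difference of these. P-values were Benjamini-Hochberg adjusted over all genes tested. The fit of the untreated contrast was tried on simulated log2 values with independent noise. That trial did not cover the added constant, the normalization, the probe set choice, the filter or the contrasts with acetate. Signals as deposited, a common median, other constants, filters and probe set rules, the replicate number as a block, a fit of the 5 arrays alone and each array left out were the alternatives. Counts of list members under some of these alternatives, and calls of family genes with each array left out, were added after the values were seen. Where leaving out an array left 1 Treg array, that array was assumed to vary like the other groups.

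Members and the 40 gene lists (666 genes, 612 on the array and 531 tested) were chosen with earlier results of these data known, and their counts are descriptions with no test of the list. Named genes were the 12 largest called differences in each direction without overlap of arrays, a fixed set of lineage genes, members of the lists beside their counts, and the 5 lowest adjusted p-values for the change with acetate. Scan dates and batches are not stated, so a batch that coincides with a group cannot be told apart from it. The number of arrays limits the precision.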

Additional observations from a re-analysis of the deposited data

Results flagged for a closer look

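For 12 named genes the Th17 minus Treg difference itself changed with acetate by the interaction contrast of the limma fit, which asks whether the difference of the 3 acetate Th17 and 2 acetate Treg arrays departs from that of the untreated arrays. For Il24 the change was -4.57 (adjusted p = 0.00328): acetate Th17 arrays had 1820 to 2489 and acetate Treg arrays 1095 to 2063, so the gene that separated untreated cultures overlapped between the acetate ones. For the leukotriene receptors the change was -3.80 for Cysltr1 (adjusted p = 0.00328) and -3.23 for Ltb4r1 (adjusted p = 0.0287). Enah changed by -3.44 (adjusted p = 0.00293), Gcnt2 by -3.47 (adjusted p = 0.0259) and Timp1 by -2.62 (adjusted p = 0.0172), and Timp1 kept a called difference of 2.89 with acetate. Among genes lower in untreated Th17 cultures, Pdlim4 changed by 4.38 (adjusted p = 0.0172), Ms4a4c by 3.95 (adjusted p = 0.0166), Ms4a4b by 3.01 (adjusted p = 0.00293), Ift80 by 2.37 (adjusted p = 0.00293), Adgre5, which encodes the adhesion receptor CD97, by 1.89 (adjusted p = 0.00328) and Ifit1bl1 by 3.79 (adjusted p = 0.0473). Pdlim4 had 1.53 to 1.95 on untreated Th17 arrays and 87.3 to 97.2 on untreated Treg arrays, and 132 to 334 on acetate Th17 arrays and 168 to 207 on acetate Treg arrays. These genes were named for their untreated difference or their change, so the size of the change is in part fixed by that choice.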

How the results depend on the processing

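The untreated comparison called 1233 genes (45.9% of them higher). Alternatives gave 1556 with signals as deposited (85.3% higher), 1307 with a common median (66.0% higher) and 3123 when only the 5 arrays were fitted, which leaves 3 residual degrees of freedom and a spread of their own. Leaving out 1 array gave 481 to 881, with 481 without Treg replicate 2, 508 without Treg replicate 1 and 696 without Th17 replicate 2; 463 to 688 of these 3 sets were among the 1233. For the acetate comparison 107 genes were called, 44.9% higher, or 77.9% in the signals as deposited. For the change with acetate 51 genes were called, against 29 with no intensity trend and 10 to 44 when 1 array was left out. Replicate numbers were not taken to pair the samples: the deviations of same-numbered untreated Th17 and Treg arrays correlated at r of 0.06 and 0.03, and those of acetate and untreated arrays at 0.15, 0.16 and -0.06 for Th17 and 0.06 for Treg. With the number as a replicate block 883 genes were called, 379 higher and 504 lower, with 80 for the acetate comparison and 40 for the change. Differences that turned sign were Bst2 (0.027) and Hmgcs1 (0.073) in the signals as deposited and Ccnd3 (-0.046) with probe sets averaged; the cause was not tested. Of 208 called genes followed through 16 alternatives, 95 kept their call in each, all 24 genes with the largest differences among them, and 102 lost it without some array. Values below a signal of about 9.10 have no dependable order, and detection calls were not used.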

Other observations

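Gene families mostly outside the lists were lower in Th17 cultures; they were picked by the start of their symbols after their values were seen, and of 26 called members 13 lost their call when some array of the 5 was left out. Of 37 Trim genes tested, a family of ubiquitin ligases with antiviral members, 11 fell and 0 rose, with a median of -0.38. Among all tested genes 6.11% fell and 5.19% rose, with a median of -0.01. In the signals as deposited that median was 0.41, and the families, including the major histocompatibility genes below, were not counted there. Small differences of family members may therefore depend on the normalization. Of the 11 Trim genes 1, Trim30a, is also counted in the type I interferon list. Trim12a averaged 31.1 on Th17 arrays and 186 on Treg arrays and fell by 2.49, Trim34a fell by 2.18 and Trim25, which acts in RNA sensing, by 1.31. All 8 Gimap genes, GTPases of lymphocyte survival, lay below 0 and 4 of them fell, among them Gimap7, which averaged 639 on Th17 arrays and 1949 on Treg arrays (-1.61), and Gimap4 (-1.07). Of 6 Ms4a genes 4 fell, among them Ms4a4b and Ms4a4c, named above; Ms4a6b averaged 972 on Th17 arrays and 3131 on Treg arrays and fell by 1.69.

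Of 16 genes of the mouse major histocompatibility complex 6 fell and 1 rose, beside 6.11% and 5.19% of all tested genes. The class I genes H2-K1 and H2-D1, which resemble each other, fell by 0.52 and 0.56, with means of 5772 and 4332 on Th17 arrays and 8231 and 6388 on Treg arrays. For H2-K1 3 of 4 tested probe sets were called lower and for H2-D1 1 of 7, and H2-K1 lost its call without either Treg replicate (adjusted p = 0.0924 and 0.0842). H2-Oa and H2-DMa, which encode chains that steer class II peptide loading, fell by 1.78 and 1.52; H2-Oa lost its call without Th17 replicate 2 or either Treg replicate (adjusted p up to 0.127) and H2-DMa without Treg replicate 2 (adjusted p = 0.0587). The class II chains H2-Aa (-0.53) and H2-Ab1 (0.83), also dendritic cell markers, were not called.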
